A study of Mus musculus with 4 samples.

Results

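The Neat1 and Malat1 locus is the neighbourhood on mouse chromosome 19 of the genes of 2 nuclear noncoding RNAs, taken here as chr19:5780001-5900000 (build mm9, 120 kb). Its members are all integration junctions of an HIV-based vector in that interval, counted as distinct combinations of strand and position. There were 183 of them among 122029 in 4 libraries: 40 in Full WT, 51 in Full M880A, 40 in PHD WT and 52 in PHD M880A. The locus was chosen by its position with the site counts of these libraries known, and its windows were selected on their summed site counts, so these counts are a description and were not tested. At the lower edge the last site outside was 9089 bp away in Full WT, 13756 bp in Full M880A, 9880 bp in PHD WT and 30053 bp in PHD M880A. At the upper edge the first site outside was 3129, 1536, 5896 and 8156 bp away in the same order.

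All 4 groups were mouse embryonic fibroblasts of strain C57BL/6 with the genotype Psip1 (-/-), which lack LEDGF, the chromatin tether of HIV integrase. By nucleofection the cells received a plasmid encoding a TAF3-LEDGF-IBD fusion, in which IBD is the part of LEDGF that integrase binds. They were sorted for GFP and infected with a VSV-G pseudotyped luciferase vector. Its insertions are taken to report on where on chromatin the fusion was bound. Full WT carried full-length TAF3, Full M880A the full-length protein with the M880A substitution, PHD WT the PHD domain alone, and PHD M880A that domain with the substitution. The fusion was thus expressed from a plasmid. No group without a fusion was analysed here, so insertions that did not depend on the fusion cannot be told apart. Each group was 1 library without replicates, and what is compared are libraries rather than conditions. Integration positions carry no expression, so the fibroblast label could not be checked against marker genes.

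TAF3 is a subunit of TFIID, the general transcription factor that recognises core promoters, and its PHD finger binds H3K4me3, a histone mark of active promoters. Malat1 and Neat1 are neighbouring genes of long noncoding RNAs that stay in the nucleus. Malat1 RNA is among the most abundant nuclear transcripts and gathers in nuclear speckles, bodies rich in splicing factors. Neat1 RNA is the scaffold of paraspeckles, bodies that retain certain RNAs and proteins. In the RefSeq table of GRCm38.p6 the genes from Malat1 onwards are, in order, Malat1, the small RNA Mascrna, Neat1, Frmd8, Slc25a45, Tigd3 and Dpf2. Mascrna is the small cytoplasmic RNA cut from the end of the Malat1 transcript. That table is of another build than the sites, so no site below is assigned to a gene, promoter or exon, and positions are given in mm9 only.

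Of both RNA genes, Malat1 had an entry in the RefSeq promoter table. Its 250 bases before and 50 bases after the start are shown because the PHD finger's mark lies at promoters, which are often rich in CG dinucleotides. Capitals mark every CG (GRCm38.p6, minus strand of the chromosome, written in the direction of transcription). Where the junctions lie relative to this sequence was not determined.
Malat1 promoter: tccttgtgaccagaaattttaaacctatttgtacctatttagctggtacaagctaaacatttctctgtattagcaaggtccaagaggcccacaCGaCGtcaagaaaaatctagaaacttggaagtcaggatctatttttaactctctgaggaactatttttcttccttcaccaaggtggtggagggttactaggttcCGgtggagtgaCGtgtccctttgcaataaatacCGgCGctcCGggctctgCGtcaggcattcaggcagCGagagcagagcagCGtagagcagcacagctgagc
The sequence held 10 CG dinucleotides, compared with a median of 7 over 32851 promoter entries of 300 bases, and 43.5% of these held at least 10. The TATA-box letters TATAAA, searched on both strands, had no match in it and were found in 13.6% of the entries. Its content of G and C was 47%.

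The libraries differed in size and in the flow of reads behind their sites. The whole lists held 22486 Full WT, 39292 Full M880A, 25363 PHD WT and 34888 PHD M880A sites, and the lowest number of reads of a listed site was 2 in each. By its read names Full WT was sequenced apart from the remaining 3 libraries, which shared an instrument and a flow cell, so in comparisons with Full WT the group and the flow cell cannot be told apart. PHD WT stood apart in a further respect. Of its listed lines with fewer than 10 reads, 26.7% were named after a read from tile 24 of the flow-cell lane, against between 1.46% and 1.74% in the other libraries. Sites known only through tile 24 made up 9.37% of the PHD WT library and 9 of its 40 sites in the locus (22.5%), with 2 to 11 reads each. Main values of PHD WT are therefore given also without them.

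The share of sites in the locus ran from 13.0 to 17.8 per 10000 over the 4 libraries. Full WT had 17.8 sites there per 10000 sites of its library (exact Poisson 95% interval 12.7 to 24.2), Full M880A 13.0 (9.66 to 17.1), PHD WT 15.8 (11.3 to 21.5) and PHD M880A 14.9 (11.1 to 19.5). The ratio of the PHD WT share to the PHD M880A share was 1.06 (exact conditional binomial 95% interval 0.683 to 1.63), and without the tile 24 sites it was 0.905 (0.561 to 1.44). The ratio of Full WT to Full M880A was 1.37 (0.883 to 2.11), that of Full WT to PHD WT 1.13 (0.709 to 1.79; 1.32 without the tile 24 sites, 0.805 to 2.18), and that of Full M880A to PHD M880A 0.871 (0.580 to 1.31). All of these intervals held 1, and they cover counting error only. Counting error leaves any ratio within these limits possible, and a smallest detectable difference was not computed. Positions and not reads were counted, since amplified copies carried no molecular identifier and cannot be taken for separate molecules.

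For PHD M880A the locus was the fullest tile on a grid fitted to it. That grid keeps the locus whole, while clusters elsewhere may be cut by a tile border, and no shifted grid was computed. In tiles of 120 kb on the grid that holds the locus as 1 tile, its 52 PHD M880A sites ranked 1 of 15252 tiles with a site. The next tile held 27 sites, so the locus exceeded it 1.93-fold, and the median occupied tile held 2. In Full WT its 40 sites ranked 2 of 9112 tiles, equal with 1 other tile and below a tile of 45. In Full M880A its 51 sites ranked 2 of 15372, below a tile of 62. In PHD WT its 40 sites ranked 4 of 7623, equal with 2 other tiles and below a tile of 46, and its rank was 12 without the tile 24 sites. On this grid the locus thus stood among the fullest tiles in every library and stood clear of all others in PHD M880A alone. Among sites with at least 10 reads it held 36 Full WT, 34 Full M880A, 28 PHD WT and 33 PHD M880A sites, with ranks of 1, 2, 4 and 1. The next PHD M880A tile then held 16.

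**Figure D1:**
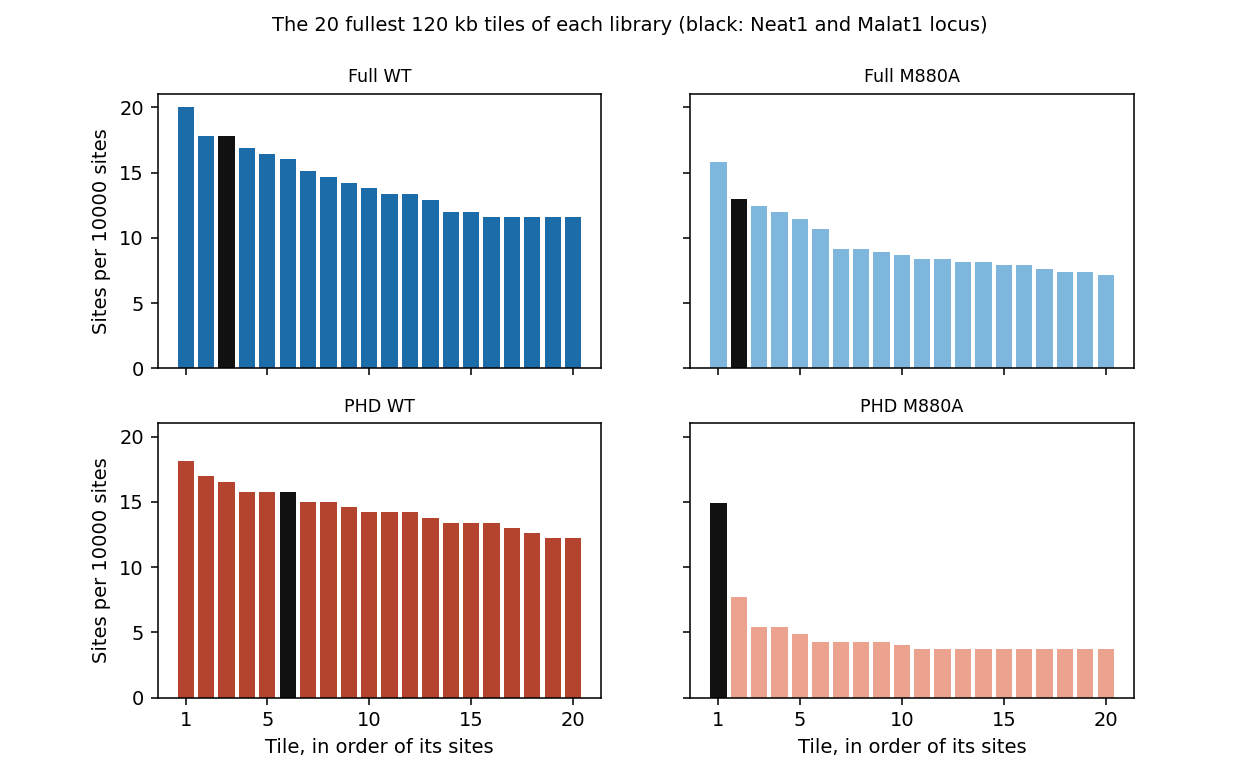
Sites per 10000 sites of the library (y axis) in the 20 fullest tiles of 120 kb of each library, ordered by their sites (x axis), with the locus in black. The black bar is far above the next tile only in PHD M880A, where it stands for 52 sites against 27.

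Within the locus the sites lay in small stretches separated by nearly empty ground. Of the 60 windows of 2 kb, 32 held no site of any library, 14 held 1 site in all, and 7 held sites of every library. Full WT sites occupied 13 windows, Full M880A sites 18, PHD WT sites 8 and PHD M880A sites 17. PHD WT thus had the fewest occupied windows, and it occupied 8 without the tile 24 sites too. When junctions of all libraries with gaps of at most 1000 bp were joined, a rule chosen after the positions were seen, there were 4 runs of at least 5 sites. They held 163 of the 183 sites, and 20 lay outside them. The longest run spanned positions 5796129 to 5804532 (8404 bp) and held 22 Full WT, 23 Full M880A, 26 PHD WT and 32 PHD M880A sites. The other large run spanned 5841372 to 5845516 (4145 bp), with 11, 12, 11 and 9 sites. PHD WT had 21 sites in the longest run and 7 in the other when the tile 24 sites were left out. Between these runs lay 36839 bp.

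**Figure D2:**
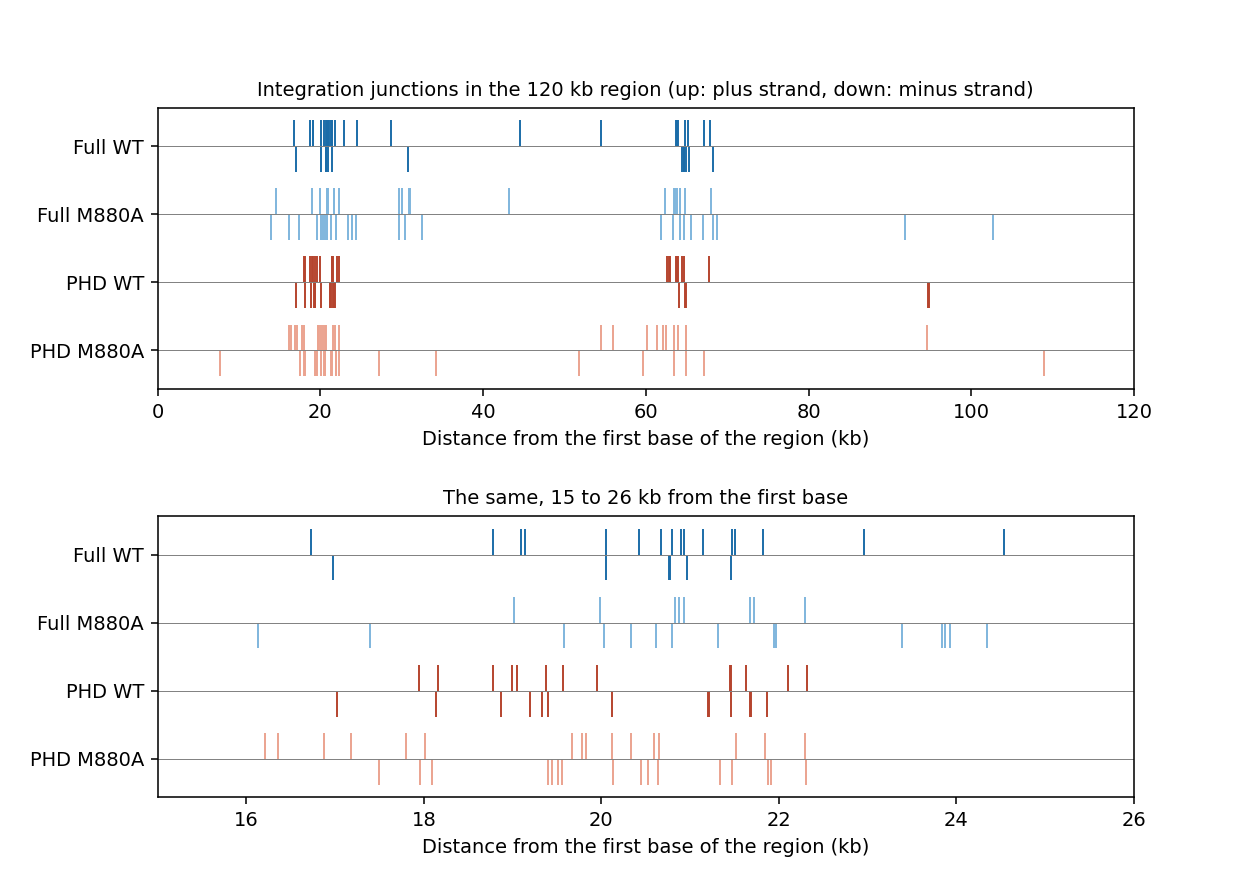
Every junction of the locus by library, as distance in kb from the first base of the region (x axis), with plus-strand junctions above and minus-strand junctions below each line; the lower panel enlarges the longest run. All 4 libraries show a dense block in the longest run and another further on, with few sites between and almost none in the last part of the region.

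Windows of 2 kb with at least 5 sites of a library show how unusual such density was. In PHD M880A, 0.0189% of the 84844 windows with a site of any library had 5 or more sites (16 windows), and 4 of these 16 lay in the locus. In Full WT 0.374% of windows reached that count, in Full M880A 0.286% and in PHD WT 1.23%, and the locus held 2, 4 and 4 of them. In PHD WT, 1.03% of windows reached it once the tile 24 sites were left out, and the locus held 2 of those. The 5 windows with the largest summed share were those starting at 5800001, 5798001, 5844001, 5842001 and 5796001, and they held 31 of 40 Full WT sites (77.5%, exact binomial 95% interval 61.5 to 89.2). They held 27 of 51 Full M880A sites (52.9%, 38.5 to 67.1), 35 of 40 PHD WT sites (87.5%, 73.2 to 95.8; 27 of 31 without the tile 24 sites) and 38 of 52 PHD M880A sites (73.1%, 59.0 to 84.4). Full M880A was the library with the largest part of its sites, 24 of 51, outside these windows.

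**Figure D3:**
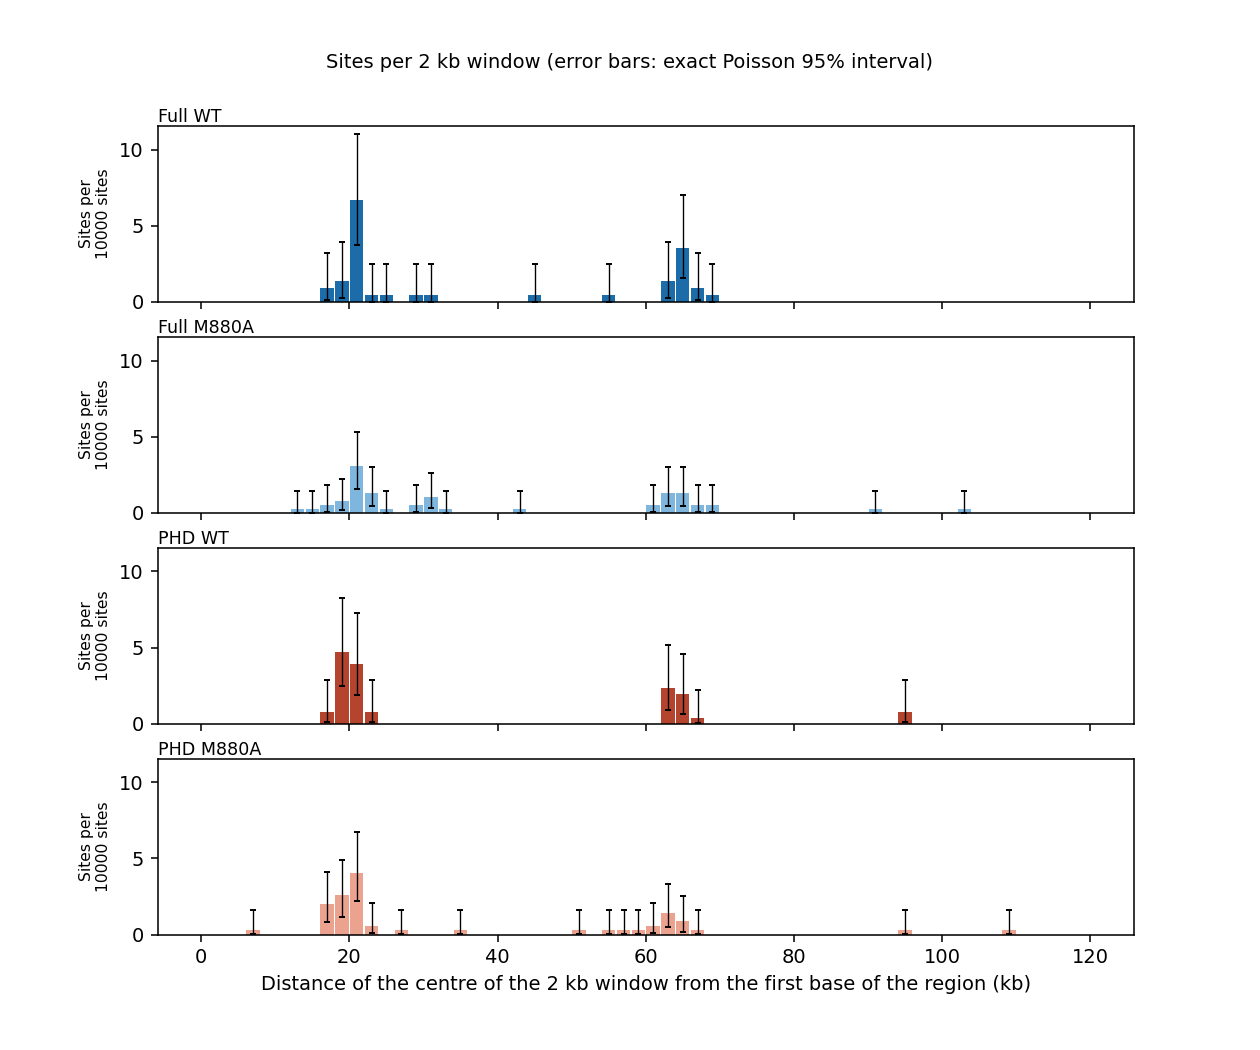
Sites per 10000 sites of the library in each 2 kb window (bars, with exact Poisson 95% intervals) against the distance of its centre from the first base of the region. The highest bar lies in the window starting at 5800001 in Full WT, Full M880A and PHD M880A, and in the window before it, starting at 5798001, in PHD WT.

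The window from 5800001 to 5802000 was the fullest of the locus. Full WT had 15 sites there, 6.67 per 10000 (3.73 to 11.0), the highest count of any 2 kb window in that library. The next Full WT window, starting at 36054001 of chromosome 17, had 14. With positions of the same strand within 10 bp merged, the fullest window of the locus held 14 Full WT and 8 PHD WT sites. Ranks were not recomputed after merging. PHD M880A had 14, 4.01 per 10000 (2.19 to 6.73), likewise the highest count of any window in its library. Full M880A had 12 sites (3.05 per 10000, 1.58 to 5.33; rank 5, one of 2 windows with that count) and PHD WT 10 (3.94 per 10000, 1.89 to 7.25; rank 82, one of 42 windows with that count). The same stretch was thus an extreme for PHD M880A and one of many full windows for PHD WT.

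The Full WT junctions on the plus strand lay at 5800052, 5800430, 5800669, 5800792, 5800897, 5800937, 5801151, 5801474, 5801505 and 5801817, with 17, 3, 72, 39, 77, 106, 189, 195, 16 and 478 reads. Those on the minus strand lay at 5800056, 5800766, 5800769, 5800965 and 5801460, with 123, 37, 530, 221 and 35 reads. They spread over the whole window, and 10 of them lay in its first 1000 bases. The Full M880A junctions lay on the plus strand at 5800833, 5800876, 5800937, 5801680 and 5801717 (2, 126, 8, 158 and 134 reads) and on the minus strand at 5800035, 5800336, 5800612, 5800800, 5801317, 5801948 and 5801965 (33, 36, 4, 67, 149, 51 and 31 reads). They too were spread over the whole window. The PHD M880A junctions lay on the plus strand at 5800120, 5800334, 5800589, 5800648, 5801513 and 5801841 (128, 484, 16, 62, 25 and 11 reads). On the minus strand they lay at 5800134, 5800453, 5800527, 5800637, 5801337, 5801478, 5801882 and 5801913 (3, 34, 88, 35, 101, 42, 8 and 154 reads). Of these 14 junctions, 12 had at least 10 reads.

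The PHD WT junctions were arranged otherwise. On the plus strand they lay at 5801454, 5801462 and 5801625 (53, 48 and 80 reads), and on the minus strand at 5800121, 5801201, 5801213, 5801460, 5801673, 5801681 and 5801870 (4, 232, 75, 24, 611, 70 and 105 reads). Between 5800121 and 5801201 PHD WT had no site over 1080 bp, its widest gap in the longest run, while Full WT had 9 sites there, Full M880A 6 and PHD M880A 7. The 1 kb window from 5800001 to 5801000, chosen after its values were seen, held 10 Full WT, 7 Full M880A, 1 PHD WT and 8 PHD M880A sites. The share was 11.3 times as high in Full WT as in PHD WT (1.60 to 489.5), and the ratio of PHD WT to PHD M880A was 0.172 (0.00387 to 1.28). The only PHD WT site of that 1 kb, at 5800121, was known through tile 24. Without such sites the gap ran from 5799953 to 5801201 (1248 bp), and PHD WT had 0 in that 1 kb. With PHD WT set at a floor of 3 sites, the ratio of Full WT to PHD WT was 3.41, which depends on the floor and is no lower bound. The exact interval of that ratio began at 2.29. On either side PHD WT was well filled, with 7 sites in the 1 kb before and 9 in the 1 kb after.

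With all sites counted, the window from 5798001 to 5800000 held mainly sites of the PHD libraries. Several of these PHD sites had fewer than 10 reads, and the shares in this window were not computed without them. PHD WT had 12 sites there (4.73 per 10000, 2.44 to 8.26) and PHD M880A 9 (2.58, 1.18 to 4.90), compared with 3 each in Full WT (1.33, 0.275 to 3.90) and Full M880A (0.764, 0.157 to 2.23). The ratio of Full WT to PHD WT was 0.282 (0.0511 to 1.04) and that of Full M880A to PHD M880A 0.296 (0.0515 to 1.19), so both intervals held 1. The ratio of Full WT to PHD WT was 0.307 with the tile 24 sites left out (0.0542 to 1.19). The PHD WT junctions lay on the plus strand at 5798161, 5798779, 5798993, 5799051, 5799378, 5799570 and 5799953 (2, 122, 5, 249, 2, 48 and 2 reads), and on the minus strand at 5798141, 5798874, 5799202, 5799332 and 5799403 (3, 144, 57, 102 and 11 reads). Without the tile 24 sites, 10 of the 12 remained. The PHD M880A junctions lay on the plus strand at 5798011, 5799669, 5799779 and 5799833 (7, 125, 90 and 9 reads), and on the minus strand at 5798098, 5799398, 5799446, 5799514 and 5799561 (3, 2, 7, 17 and 114 reads). With this count the window ranked 3 in the PHD M880A library, as one of 2 with that count, and 31 in PHD WT. The Full WT junctions lay on the plus strand at 5798784, 5799096 and 5799136 (72, 86 and 25 reads), and those of Full M880A at 5799013 and 5799988 on the plus strand (50 and 39 reads) and 5799584 on the minus strand (6 reads).

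The window from 5796001 to 5798000 held more PHD M880A sites than sites of any other library. PHD M880A had 7 sites there, 2.01 per 10000 (0.807 to 4.13), and the other libraries 2 each. The PHD M880A junctions lay on the plus strand at 5796217, 5796358, 5796878, 5797186 and 5797799 (48, 3, 2, 285 and 18 reads) and on the minus strand at 5797498 and 5797953 (7 and 460 reads). PHD WT had 5797950 on the plus strand (110 reads) and 5797024 on the minus strand (11 reads), the latter known through tile 24. Full WT had 5796730 on the plus strand (56 reads) and 5796978 on the minus strand (89 reads), and Full M880A had 5796129 and 5797394 on the minus strand (81 and 64 reads). The ratio of PHD WT to PHD M880A was 0.393 (0.0398 to 2.06), and 0.217 (0.00481 to 1.69) without the tile 24 sites. The ratio of Full M880A to PHD M880A was 0.254 (0.0257 to 1.33). All 3 of these intervals held 1.

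The shares in windows were also set against the rest of the genome. Of the 842 windows of 2 kb in which the PHD libraries together reached 6 sites, 96.2% had a share at least 2-fold higher in PHD WT (0.5 added to each count), and 1 of the 5 such windows of the locus did. Elsewhere the count of 6 was reached mostly through PHD WT, which had 1045 windows with 5 or more sites against 16 in PHD M880A, so these percentages follow in large part from the count required. A share at least 2-fold lower in PHD WT was found in 0.119% of them, a single window, which was the one starting at 5796001. Without the tile 24 sites there were 2 such windows among 683, and 1 of them was in the locus. For Full WT against Full M880A, 50.8% of 661 windows were higher and 6.51% lower by the same rule, and in the locus 2 of 5 were higher and 1 was lower. For Full WT against PHD WT, 7.26% of 1447 windows were higher and 33.4% lower, and in the locus 0 and 1 of 4. For Full M880A against PHD M880A, 66.5% of 221 windows were higher and 6.79% lower, and in the locus 0 and 2 of 6. These window counts are small and are not a test of the locus.

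Over the longest run the medians of the PHD sites lay further towards its start than those of the Full sites, but not every quartile did. The median position was 5799570 in PHD WT and 5799833 in PHD M880A, compared with 5800769 in Full WT and 5800937 in Full M880A. From the lower to the upper quartile the sites reached from 5798993 to 5801462 in PHD WT, from 5798011 to 5800648 in PHD M880A, from 5800052 to 5801460 in Full WT and from 5800035 to 5802299 in Full M880A. The upper quartile of PHD WT thus lay slightly past that of Full WT. In the 1 kb from 5801001 to 5802000 PHD WT had 9 sites and Full WT 5. Without the tile 24 sites the PHD WT median was 5799953 and its quartiles 5799051 and 5801462. Several PHD WT sites before its gap had few reads. The medians were not computed among sites with at least 10 reads, so their order may not hold there. The last PHD sites were 5802315 in PHD WT (5802100 without the tile 24 sites) and 5802304 in PHD M880A, and the Full libraries went on to 5804532 in Full WT and 5804345 in Full M880A. In the 1 kb from 5803001 to 5804000 there were 4 Full M880A sites, all on the minus strand, and no site of the other libraries. Sites of 1 library that lie close together are not replicates, and the spread of these medians over libraries of 1 kind is not known.

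**Figure D4:**
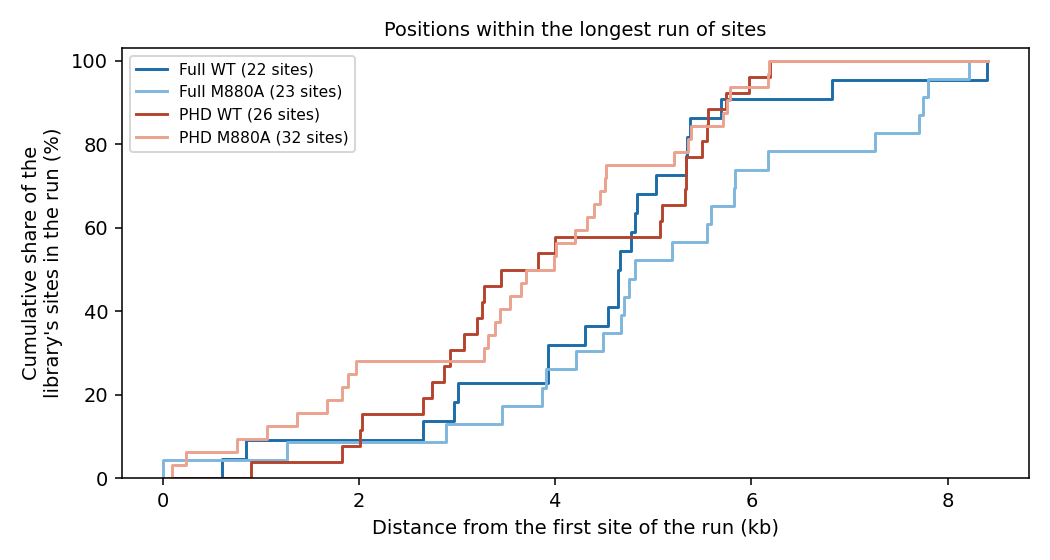
Cumulative share of each library's sites (y axis, percent) along the longest run, in kb from its first site (x axis). The flat part of the PHD WT line between about 4 and 5 kb is the gap of 1080 bp, and the Full M880A line reaches its end last but for Full WT's final site at 5804532.

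In the other large run Full WT had 4.89 sites per 10000, Full M880A 3.05, PHD WT 4.34 and PHD M880A 2.58. The ratio of shares in it was 1.60 (0.640 to 3.97) for Full WT over Full M880A, 1.68 (0.633 to 4.59) for PHD WT over PHD M880A, 1.13 (0.443 to 2.87) for Full WT over PHD WT and 1.18 (0.458 to 3.18) for Full M880A over PHD M880A. With the tile 24 sites left out, PHD WT over PHD M880A was 1.18 (0.374 to 3.56) and Full WT over PHD WT 1.61 (0.569 to 4.89). All of these intervals held 1. In the window from 5844001 to 5846000 Full WT had 8 sites (3.56 per 10000, 1.54 to 7.01), Full M880A 5 (1.27, 0.413 to 2.97), PHD WT 5 (1.97, 0.640 to 4.60) and PHD M880A 3 (0.860, 0.177 to 2.51). The intervals of the 4 libraries overlapped. The Full WT junctions lay on the plus strand at 5844783 and 5845174 (89 and 152 reads) and on the minus strand at 5844448, 5844665, 5844694, 5844716, 5845001 and 5845305 (2, 130, 27, 514, 3 and 536 reads). The Full M880A junctions lay on the plus strand at 5844202 and 5844870 (23 and 4 reads) and on the minus strand at 5844243, 5844732 and 5845516 (2, 6 and 6 reads), so none had more than 23 reads. The PHD WT junctions lay on the plus strand at 5844444 and 5844648 (11 and 74 reads) and on the minus strand at 5844120, 5844833 and 5845003 (31, 124 and 2 reads). The PHD M880A junctions lay on the plus strand at the neighbouring bases 5844998 and 5844999 (382 and 110 reads) and on the minus strand at 5845003 (257 reads). The 3 PHD M880A sites thus fell within 6 bp, and whether they were separate integrations was not determined. The same holds for close sites of other libraries, such as 5800766 and 5800769 in Full WT and 5801673 and 5801681 in PHD WT.

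In the window from 5842001 to 5844000 Full WT had 3 sites (1.33 per 10000, 0.275 to 3.90), Full M880A 5 (1.27, 0.413 to 2.97), PHD WT 6 (2.37, 0.868 to 5.15) and PHD M880A 5 (1.43, 0.465 to 3.34). Nearly all lay on the plus strand, with 17 of the 19 there. The Full WT junctions were 5843773, 5843858 and 5843932 (185, 2 and 612 reads), and the PHD WT junctions 5842570, 5842853, 5843014, 5843752, 5843858 and 5843997 (170, 2, 181, 5, 2 and 198 reads). Without the tile 24 sites PHD WT had 3 there. The Full M880A junctions were 5842354, 5843465, 5843635 and 5843824 on the plus strand (365, 33, 2 and 61 reads) and 5843313 on the minus strand (89 reads). The PHD M880A junctions were 5842171, 5842466, 5843460 and 5843994 on the plus strand (6, 18, 18 and 2 reads) and 5843527 on the minus strand (17 reads).

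The remaining runs were small and held mostly sites of the Full libraries. Between 5808708 and 5811003 there were 2 Full WT and 6 Full M880A sites and none of either PHD library. With PHD M880A set at a floor of 3 sites, the ratio of the Full M880A to the PHD M880A share was 1.78. That value depends on the floor and is no lower bound, since the exact interval of the ratio began at 1.05. The interval of Full WT over PHD WT reached down to 0.212. The run was formed from pooled sites after the positions were seen, so its lack of PHD sites was not tested. Its sites were 5808708 and 5810745 in Full WT (90 and 490 reads), and 5809687, 5809703, 5810075, 5810433, 5810953 and 5811003 in Full M880A (4, 2, 48, 178, 88 and 264 reads). Between 5847045 and 5848747 there were 3 Full WT, 4 Full M880A, 1 PHD WT and 1 PHD M880A sites. On the 30368 bp before the run at 5841372, PHD M880A had 6 sites, Full WT and Full M880A 2 each and PHD WT none. The 51253 bp after the last run held 2 sites each of Full M880A, PHD WT and PHD M880A and none of Full WT. The PHD WT sites outside the runs thus numbered 2 and the PHD M880A sites 10, against 2 in Full WT and 6 in Full M880A.

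Crowding in the locus was high in every library, whatever its crowding elsewhere. Crowding here means the share of sites whose own library has a further site at most 1 kb away. It was 85% (exact binomial 95% interval 70.2 to 94.3) in Full WT, 88.2% (76.1 to 95.6) in Full M880A, 97.5% (86.8 to 99.9) in PHD WT and 82.7% (69.7 to 91.8) in PHD M880A. Over the whole libraries, with no thinning to equal size, it was 39.1%, 21.3%, 67.2% and 8.89% in the same order. A window chosen for many sites has crowded sites by construction, so these values describe the locus and test nothing. Without the tile 24 sites, 30 of the 31 PHD WT sites had such a neighbour.

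**Figure D5:**
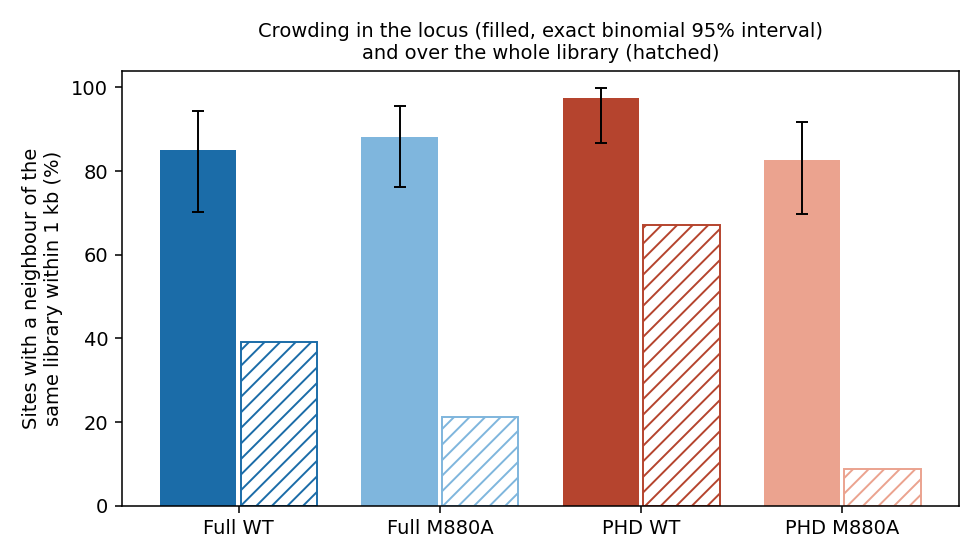
Percent of sites with a neighbour of the same library within 1 kb (y axis) in the locus (filled bars, exact binomial 95% intervals) and over the whole library (hatched bars). The filled bars lie between 82.7% and 97.5%, while the hatched bars run from 8.89% in PHD M880A to 67.2% in PHD WT.

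The libraries also lay close to each other. Of the 52 PHD M880A sites of the locus, 42 (80.8%, 67.5 to 90.4) had a PHD WT site within 1 kb, against 6.98% of all PHD M880A sites. For the Full WT and Full M880A libraries the numbers were 40 (76.9%, against 6.70%) and 42 (80.8%, against 8.02%). Conversely, all 40 PHD WT sites (exact interval from 91.2%) had a PHD M880A site within 1 kb, against 22.8% of all PHD WT sites. Full M880A sites had the lowest shares near the PHD libraries, with 33 of 51 (64.7%, 50.1 to 77.6) near PHD WT, against 18.1% of its library. Near PHD M880A lay 32 of 51 (62.7%, 48.1 to 75.9), against 9.22%. Full WT had 35 of 40 sites (87.5%) near each PHD library. Its whole-library shares were also higher, at 41.3% near PHD WT and 15.8% near PHD M880A. When the tile 24 sites were left out, PHD WT had a site that close to 39 of 52 PHD M880A sites (75%, 61.1 to 86.0), 34 of 40 Full WT sites and 32 of 51 Full M880A sites. All 31 of its own sites still had PHD M880A within 1 kb. Sites of 1 stretch share their surroundings and are not independent of each other. A region with many sites of every library has sites of other libraries nearby by construction. These shares therefore describe the locus and test nothing.

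Over the whole locus, strand use of each library showed no departure from equality beyond counting error. Single windows could be uneven, as in that from 5842001 to 5844000, where nearly all sites of the pooled libraries lay on the plus strand. Strand use by window was not tested. On the plus strand lay 26 of 40 Full WT sites (65%, 48.3 to 79.4), 21 of 51 Full M880A sites (41.2%, 27.6 to 55.8), 22 of 40 PHD WT sites (55%, 38.5 to 70.7; 16 of 31 without the tile 24 sites) and 27 of 52 PHD M880A sites (51.9%, 37.6 to 66.0). Over the whole libraries it was between 49.9% and 50.3%. All 4 intervals of the locus held these values.

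Reads per site differed between the libraries in the locus. The reads of a site ran from 2 to 612 in Full WT with a median of 81.5, from 2 to 453 in Full M880A with a median of 36, from 2 to 611 in PHD WT with a median of 54.5, and from 2 to 484 in PHD M880A with a median of 18. The library medians were 41, 24, 29 and 23. PHD M880A was thus the library whose locus median lay below that of all its sites. Sites with fewer than 10 reads numbered 4 of 40 in Full WT, 17 of 51 in Full M880A, 12 of 40 in PHD WT and 19 of 52 in PHD M880A. The PHD WT median was 75 with the tile 24 sites left out, and 4 of its 31 sites had fewer than 10 reads.

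Few positions recurred between libraries, though in each library their share was higher in the locus than over all its sites. A region with many sites of every library has more coincident positions by construction, so these shares describe the locus and test nothing. There were 5, each in 2 libraries, so the 183 sites stood for 178 distinct positions. Full WT and Full M880A shared 5800937 on the plus strand (106 and 8 reads), and Full WT and PHD WT shared 5801460 on the minus strand (35 and 24 reads) and 5843858 on the plus strand (2 reads each). Full M880A and PHD M880A shared 5802299 on the plus strand (12 and 46 reads), and PHD WT and PHD M880A shared 5845003 on the minus strand (2 and 257 reads). The PHD WT sites at 5843858 and 5845003 were known only through tile 24, and 3 shared positions remained without such sites. Of the 31 PHD WT sites then left, 1 was shared (3.23%, 0.0816 to 16.7). Shared positions were 3 of 40 sites in Full WT (7.5%, 1.57 to 20.4, against 1.32% of the library), 2 of 51 in Full M880A (3.92%, 0.478 to 13.5, against 0.476%), 3 of 40 in PHD WT (7.5%, 1.57 to 20.4, against 1.29%) and 2 of 52 in PHD M880A (3.85%, 0.469 to 13.2, against 0.275%).

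The locus was the fullest PHD M880A tile on this grid, so the tiles of 120 kb most like it had fewer PHD M880A sites by construction. Likeness was measured as the Euclidean distance between the square roots of the sites per 10000 in the 4 libraries. The closest tile, on chromosome 11 from 120020001 to 120140000, had 36 Full WT, 49 Full M880A, 46 PHD WT and 11 PHD M880A sites (distance 2.12). The following 4 were on chromosome 19 from 5420001 and from 8780001, on chromosome 10 from 80540001 and on chromosome 5 from 143540001, with distances of 2.13, 2.41, 2.21 and 2.22 and with 10 or 11 PHD M880A sites each. In PHD M880A the locus had 52. In Full M880A these tiles had from 25 to 49 sites, against 51 in the locus.

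Among 2 kb windows elsewhere, the closest to that starting at 5800001 lay between 86474001 and 86476000 of chromosome 6, with 11 Full WT, 7 Full M880A, 11 PHD WT and 3 PHD M880A sites (distance 1.21). The window starting at 36054001 of chromosome 17 had 2 PHD M880A sites, that at 114254001 of chromosome 8 had 6, and that at 79912001 of chromosome 15 had 5. The window on chromosome 11 from 86398001 to 86400000 had 5 Full WT, 4 Full M880A, 11 PHD WT and 11 PHD M880A sites (distance 1.34). It was the fullest PHD M880A window outside the locus, and of the 5 it was the only one with as many PHD M880A as PHD WT sites.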

How the data were processed

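Each library has 1 deposited list of sites, made from paired-end reads per the file headers. The submitters' processing notes name the build mm9 and the tool MACS 1.4.2 without saying what it did. How reads were aligned and merged is not given in the sources here. All values of the deposited score are 0, and it served no purpose here. The number after each read name was read as a read count, judged by its values alone.

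The junction was the start plus 1 on the plus strand and the end on the minus strand, and lines that agreed in junction and strand became 1 site with their reads summed. Shares are sites per 10000 sites of the library. Counts have exact Poisson intervals, shares exact binomial (Clopper-Pearson) intervals and ratios exact conditional binomial intervals, all at 95% and for counting error only. A library with 0 sites was set at a floor of 3 sites per library. Windows of 2 kb and tiles of 120 kb start at the first base of the region. The 5 windows with the largest summed share were named, with all their junctions, and the 5 most like tiles and windows. The runs and the left-out tile 24 were chosen after the positions were seen. The region and all rules were chosen with earlier results of these data known. The counting and interval steps were tested on simulated data. Alternatives were the other end of each line, at least 10 reads, merging within 10 bp, leaving out shared positions, autosomes only, other windows and neighbour distances, and sums of reads. Calculations used Python 3.11.15, numpy 2.4.6 and scipy 1.17.1.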

Additional observations from a re-analysis of the deposited data

Results flagged for a closer look

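In the window from 5800001 to 5802000 the ratio of WT to M880A shares was 2.18 for the full-length protein (0.954 to 5.11) and 0.983 for the PHD domain (0.390 to 2.38). These lie on opposite sides of 1, but the PHD ratio was 1.09 with the other end of each line, 1.08 with at least 10 reads and 1.03 with 5 kb windows, where both lie above 1. In the window from 5796001 to 5798000 the ratio was 1.75 for the full-length protein (0.127 to 24.1) and 0.393 for the PHD domain (0.0398 to 2.06), again on opposite sides. The difference between the lengths was not tested, since each group has 1 library, and all 4 intervals held 1.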

How the results depend on the processing

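Of 181 values recomputed under the alternatives, 170 stayed within the interval of the reported value, or within 1.5 times for counts of sites. The interval of each main ratio over the locus or its fullest 2 kb window held 1, so none had a direction to lose. The PHD WT over PHD M880A ratio ran from 0.905 to 1.22 over the locus and, with windows of all sizes, from 0.172 to 1.09 in the fullest window. Over the locus the Full WT over Full M880A ratio ran from 1.33 to 1.60, the latter with at least 10 reads. The locus share stayed between 16.7 and 21.3 per 10000 in Full WT, 12.5 and 13.6 in Full M880A, 13.5 and 17.3 in PHD WT and 13.8 and 15.7 in PHD M880A over the alternatives that count sites. With sums of reads in place of sites, the share per 10000 reads was 28.2 in Full WT, 10.0 in Full M880A, 15.0 in PHD WT and 19.3 in PHD M880A. The window size changed the most values. With 1 kb windows the fullest window held 7 Full M880A, 1 PHD WT and 8 PHD M880A sites, the ratio there was 0.172 for PHD WT over PHD M880A and 11.3 for Full WT over PHD WT, and the 5 fullest windows held 62.5% of the PHD WT and 50% of the PHD M880A sites. With 5 kb windows they held 92.5% of the Full WT, 86.3% of the Full M880A and 84.6% of the PHD M880A sites. Smaller and larger windows hold fewer and more sites by construction. Leaving out the PHD WT sites known through tile 24, an alternative chosen after seeing the data, kept all 9 values that use PHD WT within their intervals, and the ratio of PHD WT to PHD M880A over the locus passed from 1.06 to 0.905. No paired analysis was possible because each group has 1 library and the labels give no replicate numbers. With 40 to 52 sites per library, the intervals given above are the range of ratios of locus shares that counting error leaves possible. A smallest detectable ratio was not computed.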

Other observations

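The tile that names the first listed read of a site was not part of any comparison. In PHD WT, 2487 of 9322 lines with fewer than 10 reads carried tile 24, and the next tile carried 2.30% of them. In the other libraries the largest share of any tile was between 3.32% and 4.48%. Over the whole PHD WT library, crowding within 1 kb was 67.2% with the tile 24 sites and 65.8% without them.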
